A study of Mus musculus with 2 samples.

Results

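The splicing factor genes described here are 37 protein-coding genes of 22367 on chromosomes 1 to 19, X and Y in the GENCODE M1 annotation of the mouse genome (NCBI37/mm9). They were chosen by symbol, by a rule that uses no measured value, although the list was drawn up with earlier results of these data known. They comprise 12 genes for serine/arginine-rich (SR) and SR-like proteins, 17 for heterogeneous nuclear ribonucleoproteins (hnRNPs), and 8 for the SF3a and SF3b proteins of the U2 small nuclear ribonucleoprotein (snRNP) and for the U2 auxiliary factor U2AF. R-loop peaks came from DRIP-seq, in which restriction-digested genomic DNA is precipitated with the S9.6 antibody against RNA:DNA hybrids and then sequenced. The cells were primary neural stem and progenitor cells (NSPCs) isolated from C57BL/6 mice at postnatal day 7 and, per the study's methods, exposed to 0.5 µM aphidicolin for 48 h, an inhibitor of replicative DNA polymerases that causes mild replication stress. Untreated NSPCs were not analysed here, and the input library was not used here. The measurement is 1 list of 22132 peak positions with no count, signal or score, so depth is unknown, no error between replicates can be given and no comparison was tested.

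Pre-mRNA splicing removes introns in the spliceosome, where U2AF reads the end of the intron and SF3a and SF3b hold the U2 snRNP on the branch site. SR proteins bind exons and mostly promote their inclusion, whereas hnRNPs coat nascent RNA and often repress nearby splice sites. R-loops form when nascent RNA pairs with its template, which leaves the other strand single-stranded, and proteins that package nascent RNA are known to limit them. The genes below encode such proteins. The peaks lie on these genes and say nothing of what the proteins bind.

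Of the 37 genes, 32 overlapped at least 1 R-loop peak by 1 bp or more, or 86.5%, beside 39.6% of all protein-coding genes. At least 2 peaks were found in 22 of them, or 59.5%, beside 18.0% of all. The annotated transcription start site (TSS) lay inside a peak in 21 genes, or 56.8%, beside 14.9% of all, and the annotated transcription end site (TES) in 13 genes, or 35.1%, beside 10.9% of all. Genes differ in length and in promoter base composition, so all protein-coding genes were sorted into 10 classes by length and 10 by promoter GC content, taken 2 kb to either side of the TSS. Averaged over the classes that hold the 37 genes, with 178 to 296 genes each, 49.2% of genes had a peak, 21.7% had their TSS in a peak and 17.7% had their TES in a peak. The splicing factor genes stood above both figures in each of these measures. The classes hold length and promoter GC alike and nothing else, transcription rate included.

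The 3 families differed in where their peaks lay. All 12 SR and SR-like genes had a peak, and 10 had their TSS in a peak against 21.2% of genes of their classes. Among hnRNP genes, 14 of 17 had a peak and 10 had their TSS in a peak, against 23.9% in their classes. Of the 8 SF3a, SF3b and U2AF genes, 6 had a peak, and 1, Sf3a3, had its TSS in a peak, or 12.5%, near the 17.7% in their classes. The order changed at the TES, which lay in a peak in 6 SR genes, 3 hnRNP genes and 4 genes of the U2 group, against class shares of 19.1%, 17.9% and 15.2%. With families of 8 to 17 genes from 1 list, the differences between families are counts and were not tested.

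**Figure D1:**
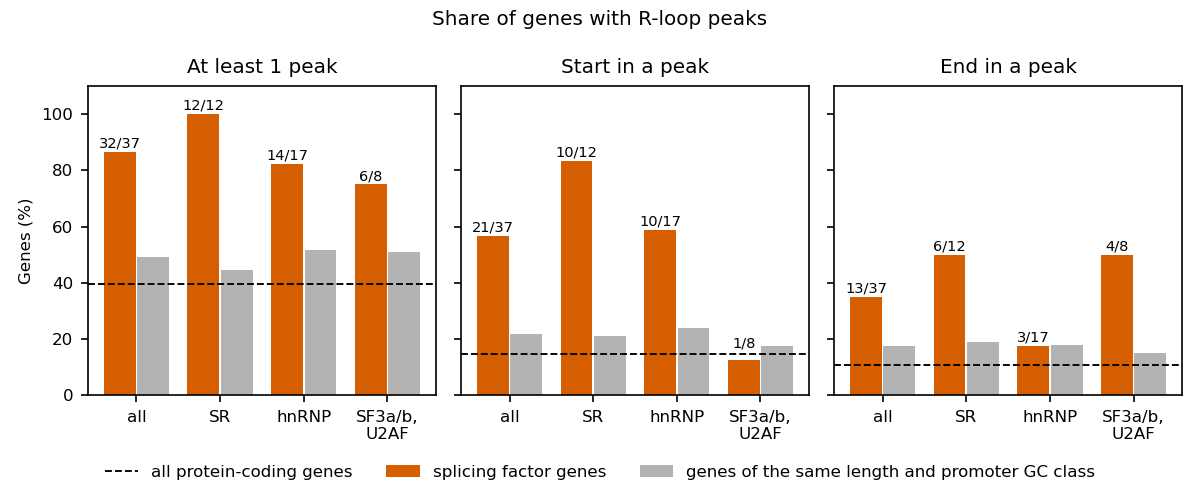
Share of genes (%) with at least 1 R-loop peak, with the TSS in a peak and with the TES in a peak. Orange bars are splicing factor genes with the number of genes on top, grey bars the mean share over all genes of the same length and promoter GC classes, and the dashed line all protein-coding genes. SR genes reached 12 of 12 and 10 of 12 in the first 2 panels, and the SF3a, SF3b and U2AF genes, with 1 of 8 at the TSS, lay near the share of all genes.

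In all, 62 peaks overlapped the 37 genes, 0.280% of the list. Of these, 21 covered a TSS, 13 covered a TES, 28 lay wholly inside a gene, and 0 spanned a gene from start to end. The median width was 2.65 kb for peaks over a TSS, 4.16 kb for peaks over a TES and 1.64 kb for internal peaks, beside 1.32 kb over the whole list. The whole list is not sorted by place. Over the TSS peaks of all protein-coding genes the median was 2.78 kb, near that of the splicing factor genes. SR genes carried 10 TSS, 6 TES and 4 internal peaks, hnRNP genes 10, 3 and 13, and the U2 group 1, 4 and 11. Internal peaks were thus the largest class in hnRNP genes and in the U2 group, and the smallest in SR genes. Median gene length was 8.95 kb in SR genes, 13.7 kb in hnRNP genes and 19.7 kb in the U2 group. Length was not held alike in these counts, and its part in them was not tested.

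**Figure D2:**
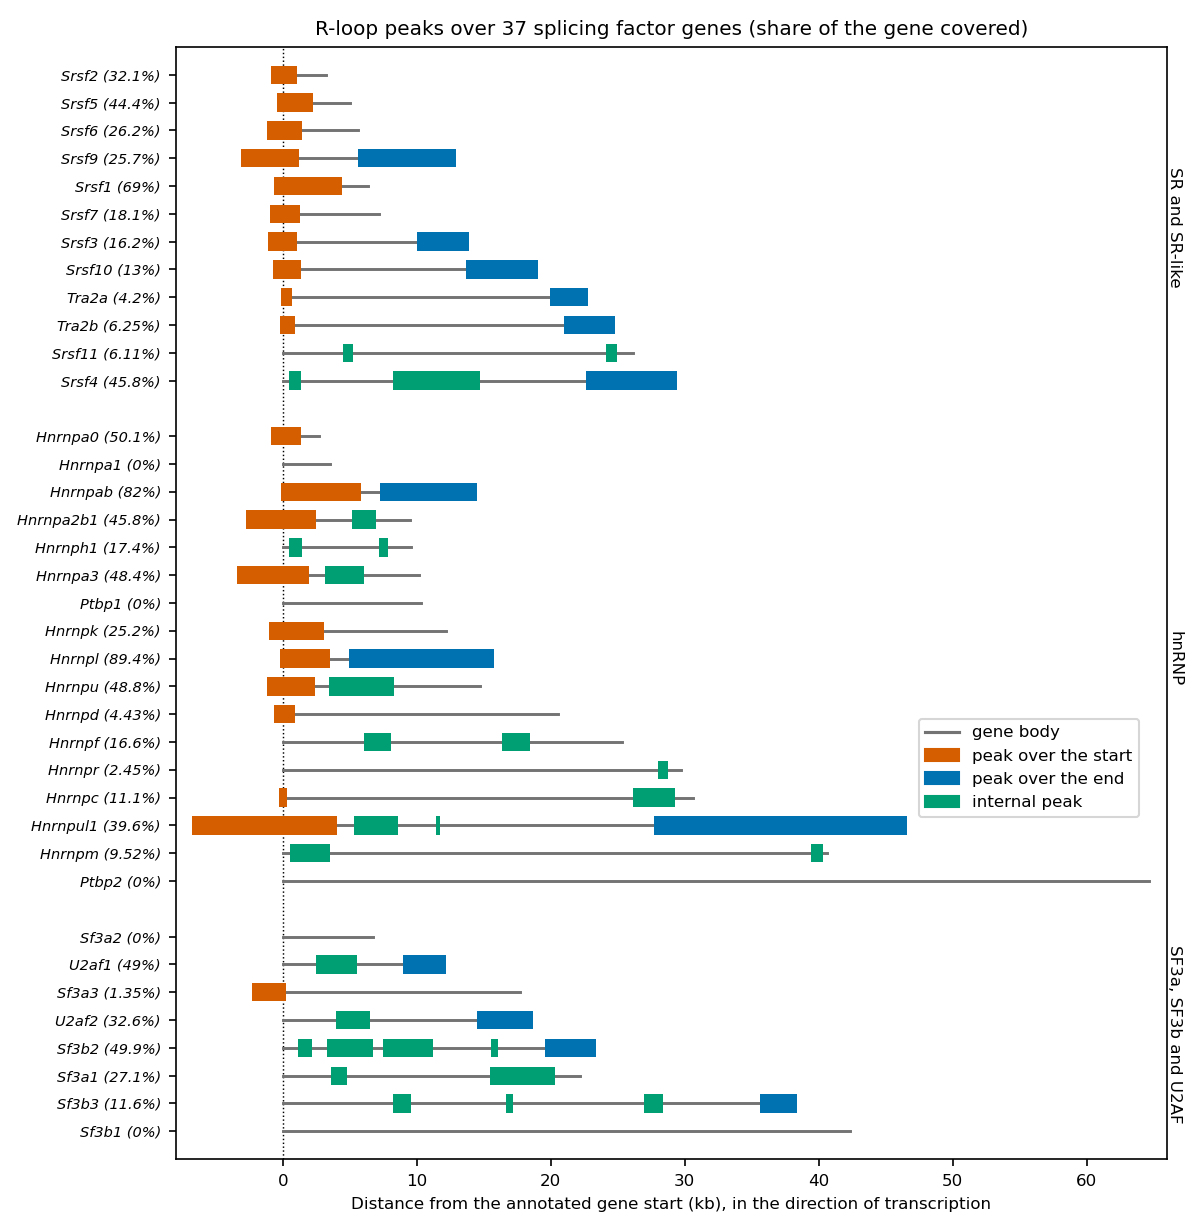
R-loop peaks over the 37 splicing factor genes, each gene drawn from its annotated start (0) in the direction of transcription, in kb, with the share of the gene covered by peaks beside its symbol. Boxes are peaks over the start (orange), over the end (blue) or inside the gene (green), and grey lines are gene bodies. Peaks cluster at the starts of SR and hnRNP genes, and 5 genes have none.

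Sequence inside the peaks is shown first for the SR genes, because their TSS peaks are the most regular. Each line is the window of 60 bases inside a peak in which G most outnumbers C, read from the coding strand of mm9, with runs of at least 3 G in capitals. The windows were picked for G, so their G content is a description. All 4 lie in an intron.
Srsf1, chr11:87861572-87861631 (+), 697 bp after the TSS, 32 G and 6 C: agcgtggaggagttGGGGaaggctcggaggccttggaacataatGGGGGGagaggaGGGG
Srsf5, chr12:82046809-82046868 (+), 318 bp after the TSS, 35 G and 7 C: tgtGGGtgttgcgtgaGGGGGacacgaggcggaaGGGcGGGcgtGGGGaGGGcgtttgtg
Srsf6, chr2:162758240-162758299 (+), 976 bp after the TSS, 36 G and 4 C: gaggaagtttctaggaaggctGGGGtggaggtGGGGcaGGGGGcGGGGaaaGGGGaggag
Srsf7, chr17:80606310-80606369 (-), 260 bp after the TSS, 35 G and 11 C: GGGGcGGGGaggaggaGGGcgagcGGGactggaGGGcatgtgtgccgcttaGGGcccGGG

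Among the SR genes, Srsf1 encodes the founding member of the family, a protein with 2 RNA recognition motifs and a short arginine/serine tail. It is 6.38 kb long on chr11:87860875-87867257, and 1 peak of 5.05 kb ran from -643 to 4404 bp relative to its TSS. This peak touched all 4 exons, covered all coding bases and 69.0% of the gene, the highest share among SR genes. Srsf2, which encodes the SR protein long used to mark nuclear speckles, had 1 peak of 1.87 kb over its TSS on chr11:116713383-116715254, with 32.1% of the gene covered. That peak also held the start of Mfsd11, which lies 654 bp away on the opposite strand. A peak over a shared start region cannot be given to either gene, since the list carries no strand.

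In Srsf5, 1 peak of 2.68 kb covered the TSS, exons 1 to 4 of 8 and 44.4% of the gene. In Srsf6 the TSS peak of 2.65 kb covered 26.2%. Srsf7, whose protein carries a zinc knuckle beside its RNA recognition motif, had 1 peak of 2.23 kb over 18.1% of the gene, and that peak also held the start of Ttc39d, 171 bp away on the opposite strand. These 3 genes showed the same layout, with a single peak over the TSS and a 3′ part without a peak. The coding bases for the 40 codons richest in arginine and serine, which belong to the RS domain, lay outside peaks in all 3.

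Both the TSS and the TES lay in a peak in 8 of the 37 genes, beside 4.28% of all protein-coding genes, and 5 of the 8 were SR genes. Srsf3, which encodes the smallest member of the family, had a peak of 2.17 kb over its TSS and one of 3.94 kb over its TES, and 0% of its coding bases lay in either. Srsf9 had TSS and TES peaks of 4.39 kb and 7.29 kb, of which the second lay mostly beyond the gene, with 3.92% of its width inside. Srsf10, a splicing repressor when dephosphorylated, had a TSS peak of 2.06 kb and a TES peak of 5.37 kb that also held the start of the convergent gene Pnrc2. Tra2a and Tra2b, which encode SR-like activators of exons with purine-rich enhancers, had short TSS peaks of 0.816 kb and 1.12 kb and TES peaks of 2.82 kb and 3.82 kb. In both Tra2 genes nearly the whole body between the peaks was free of them, with 4.20% and 6.25% covered. The TES peaks of Srsf3, Srsf10, Tra2a and Tra2b also lay mostly beyond the gene, with 17.9%, 9.10%, 5.86% and 12.3% of their width inside.

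The other two SR genes did not have their annotated TSS in a peak. Srsf4, which encodes a large SR protein, had 3 peaks over 45.8% of the gene: one that began 497 bp after the TSS, one of 6.52 kb that touched no exon, and one of 6.80 kb over exons 4 to 6 and the TES. The TES peak held the 40 codons richest in arginine and serine, 32 of 40, in full. Srsf11 had 2 internal peaks of 0.744 kb and 0.856 kb and 6.11% covered. In both genes a peak held the start of another annotated protein-coding transcript, so with any transcript start counted all 12 SR genes had a start in a peak. Counted that way, 27 of the 37 genes did, beside 17.2% of all protein-coding genes.

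Around the TSS the SR peaks were narrow in position. At 500 bp downstream of the TSS 91.7% of SR genes were in a peak, beside 58.8% of hnRNP genes, 0% of the U2 group and 14.6% of all protein-coding genes. By 2 kb downstream the SR share was 16.7% and that of hnRNP genes 41.2%. SR genes thus left the peak sooner than hnRNP genes. Over all 21 TSS peaks the median reach was 890 bp upstream (135 to 6806 bp) and 1358 bp downstream (238 to 5811 bp), and 15 reached further downstream than upstream. The medians over the TSS peaks of all 3325 protein-coding genes that have one were 902 bp and 1468 bp, and 64.6% reached further downstream, so the extent of the splicing factor peaks was near that of other genes.

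**Figure D3:**
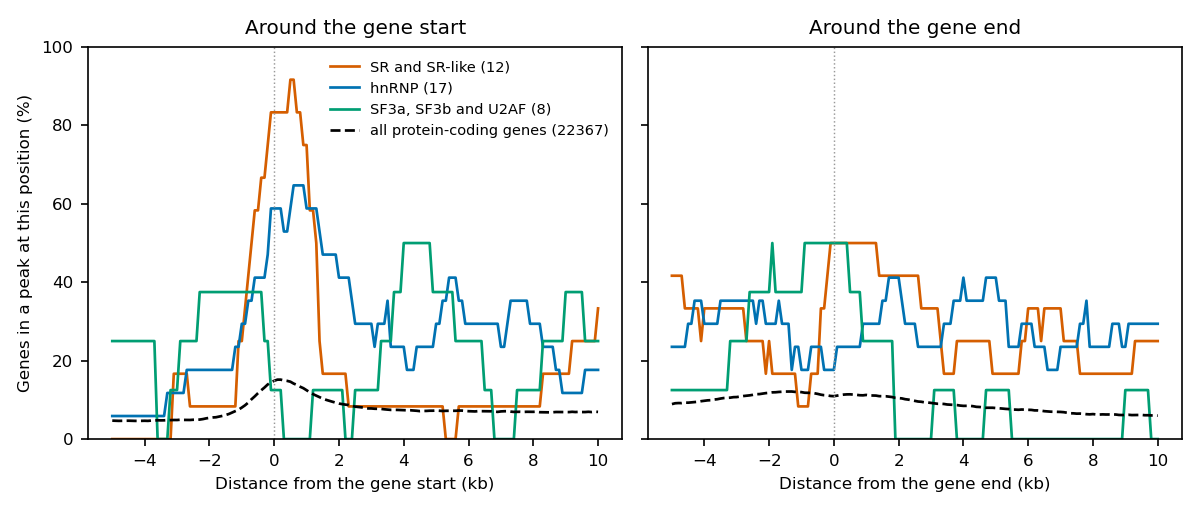
Share of genes (%) in an R-loop peak at each distance (kb) from the annotated start (left) and end (right), for SR and SR-like genes (12), hnRNP genes (17), SF3a, SF3b and U2AF genes (8) and all protein-coding genes (dashed). SR genes peak near the start at 91.7%, hnRNP genes extend further into the gene, and the U2 group has its high shares inside and at the end.

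The hnRNP genes are introduced by windows from their TSS regions and from coding exons, chosen in the same way. The window of Hnrnpd lies between its own start and that of 4930524J08Rik. Those of Hnrnpa3 at the start and of Hnrnpk lie in introns, and the last 3 in coding exons.
Hnrnpd, chr5:100408010-100408069 (-), 112 bp before the TSS, 41 G and 12 C: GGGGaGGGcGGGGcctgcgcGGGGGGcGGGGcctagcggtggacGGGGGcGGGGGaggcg
Hnrnpk, chr13:58502964-58503023 (-), 1681 bp after the TSS, 39 G and 11 C: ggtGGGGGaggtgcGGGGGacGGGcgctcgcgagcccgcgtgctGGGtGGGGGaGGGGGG
Hnrnpa3, chr2:75497735-75497794 (+), 417 bp after the TSS, 38 G and 10 C: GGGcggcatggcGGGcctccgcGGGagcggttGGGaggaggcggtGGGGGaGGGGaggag
Hnrnpa3, chr2:75500902-75500961 (+), 3584 bp after the TSS, 31 G and 3 C: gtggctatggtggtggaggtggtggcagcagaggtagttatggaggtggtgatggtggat
Hnrnpa2b1, chr6:51414459-51414518 (-), 5375 bp after the TSS, 31 G and 5 C: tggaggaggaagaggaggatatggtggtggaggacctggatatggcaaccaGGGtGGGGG
Hnrnpr, chr4:135895513-135895572 (+), 28656 bp after the TSS, 30 G and 5 C: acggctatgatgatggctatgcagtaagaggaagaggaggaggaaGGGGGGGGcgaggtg

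Of the hnRNP windows shown, those at the start hold 6 or 7 runs of at least 3 G and those in coding exons 0 to 2. This does not hold for every gene. The TSS peak window of Hnrnpa0, not shown, lies in a coding exon, with 6 runs and 11 glycines in 19 whole codons. The intronic window of Hnrnpk holds 6 runs of at least 3 G, whereas the coding window of Hnrnpa3 holds 0 and spreads its G over repeats of GGN, the codons for glycine. Read in frame, 13 of the 19 whole codons of that window encode glycine, as do 13 of 19 in the Hnrnpa2b1 window and 9 of 19 in the Hnrnpr window. Glycine-rich tails are a known feature of hnRNP A/B proteins and of the RGG boxes of others. Since the windows were picked for G, the place of the glycine-rich parts was also read without the peaks, as the 40 codons richest in glycine of each protein, a step chosen after the windows were seen. In the 17 hnRNP genes this stretch lay wholly in a peak in 8, partly in 2 and in no peak in 7. Over all 37 genes 35.0% of coding bases lay in peaks, which is a share of bases and sets no level for these counts. For the 40 codons richest in arginine and serine, the same 17 genes gave similar counts. That stretch lay wholly in a peak in 6, partly in 3 and in no peak in 8.

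Among the genes of the hnRNP A/B type, Hnrnpa0, an intronless gene of 2.68 kb, had a TSS peak of 2.23 kb over 50.1% of the gene and all of its coding bases. Hnrnpa2b1 had a TSS peak of 5.22 kb, which also held the start of Cbx3 466 bp away on the opposite strand, and an internal peak of 1.85 kb over exons 8 to 11 of 11. Hnrnpa3 had the same layout, with a TSS peak of 5.34 kb and an internal peak of 2.96 kb over exons 5 to 10 of 11, and 48.4% of it was covered. Hnrnpab, whose protein binds RNA and single-stranded DNA, had a TSS peak of 5.96 kb over exons 1 to 7 of 8 and a TES peak of 7.23 kb, with 82.0% covered. Of the width of that TES peak, 10.0% lay inside the gene. The stretch richest in glycine, with 26 of 40 codons in both Hnrnpa2b1 and Hnrnpa3, lay in a peak for 81.7% of its bases in the first and in full in the second. In Hnrnpa0 and Hnrnpab all coding bases lay in peaks, so the place of the stretch adds nothing there.

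Hnrnpa1, which encodes one of the most abundant hnRNPs, stood apart from these relatives with no peak, also over its stretch with 23 glycines in 40 codons. The nearest peak began 855 bp downstream of its TES on chr15:103075300-103076624. Its transcript also has near-identical copies elsewhere in mm9, with 100% of its length matched at 95% identity or more over 11 loci. The methods name uniquely mapped reads for the signal tracks, and do not say which reads entered peak calling. The other genes with the largest copied shares were Hnrnpa3 (99.9%, 32 loci), U2af2 (97.8%), Srsf5 (96.9%), Hnrnpf (92.7%), Hnrnpr (88.6%) and U2af1 (100%), each with a peak, and Ptbp1 (86.0%), without one. Shares from 59.0% to 76.0% were found in Tra2b, Hnrnpc, Srsf10, Hnrnpk and Srsf3, each with a peak. The part of copies in the result for Hnrnpa1 was not tested.

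Hnrnpl, whose protein prefers CA repeats, had the highest covered share of all 37 genes. A TSS peak of 3.70 kb and a TES peak of 10.8 kb over exons 4 to 14 of 14 together covered 89.4% of the gene. The widest peaks belonged to Hnrnpul1, which encodes a relative of hnRNP U. Its TES peak of 18.9 kb, chr7:26493131-26512051, also held the start of Ccdc97, and its TSS peak of 10.8 kb also overlapped Axl, with 29.3% and 37.2% of the peaks inside Hnrnpul1. These 3 peaks of over 10 kb compare with 429 of that width in the whole list.

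Hnrnpu, which encodes a large nuclear matrix protein, had a TSS peak of 3.58 kb over exons 1 to 3 and an internal peak of 4.80 kb over exons 4 to 13 of 14, and 97.9% of its coding bases lay in them. Hnrnpk, whose protein reads C-rich RNA through KH domains, had a TSS peak of 4.12 kb shared with the start of Rmi1, 746 bp away. Hnrnpc, whose protein binds uridine tracts, had a TSS peak of 0.584 kb, the narrowest TSS peak of the 21, and one of 3.12 kb over exons 5 to 8 of 8. Hnrnpd, whose protein binds AU-rich elements and takes part in mRNA decay, had 1 peak of 1.53 kb over 4.43% of the gene, shared with the start of 4930524J08Rik 123 bp away. Narrow and broad TSS peaks thus occurred within 1 family.

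Internal peaks alone were found in 4 hnRNP genes. Hnrnph1 and Hnrnpf encode proteins that bind G runs in RNA. Hnrnph1 had peaks of 0.978 kb and 0.681 kb, the first of which began 478 bp after the TSS, and Hnrnpf had peaks of 2.07 kb and 2.13 kb, of which the first holds the start of 4933440N22Rik on the opposite strand. Hnrnpm had peaks of 2.98 kb, from 535 bp after its TSS, and of 0.889 kb over its last exon. Hnrnpr had 1 peak of 0.728 kb over parts of exons 10 and 11, with 2.45% covered. With the start of any annotated protein-coding transcript counted, Hnrnpf, Hnrnph1 and Hnrnpm also had a start in a peak, but not Hnrnpr.

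The polypyrimidine tract binding proteins, which repress exons in non-neuronal cells and progenitors (Ptbp1) and in young neurons (Ptbp2), had no peak on either gene. The nearest peak was 38228 bp upstream of Ptbp1 and 15676 bp downstream of Ptbp2. In Ptbp2 the classes of like length and promoter GC had a peak in 68.0% of genes, the highest class share of the 37. The annotated Ptbp2 start region is as rich in G as several windows shown above, with 39 G, 9 C and 7 runs of at least 3 G in an intron 654 bp after its TSS. It is the richest of the windows found alike in the 5 genes without a peak, of which the others held 28 G in Ptbp1, 24 in Sf3b1, 23 in Hnrnpa1 and 21 in Sf3a2, with 1 to 3 runs.
Ptbp2, chr3:119485593-119485652 (-), no peak: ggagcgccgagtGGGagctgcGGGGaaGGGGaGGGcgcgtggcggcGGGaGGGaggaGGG
The third paralogue, Ptbp3, which is listed as Rod1 in the annotation and is not among the 37, had its TSS in a peak. In Ptbp2 a G-rich window on the coding strand was present without a peak, and the list does not say whether signal there was absent or below the peak caller's limit.

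In the U2 group, most peaks on the genes lay inside them or at their ends. Sequence before the starts was also in peaks. At 2300 bp upstream of the TSS the share was 37.5%, beside 8.33% of SR genes, 17.6% of hnRNP genes and 4.98% of all protein-coding genes. The window below comes from an intron of Sf3b2, as it holds no C.
Sf3b2, chr19:5291859-5291918 (-), 3537 bp after the TSS, 30 G and 0 C: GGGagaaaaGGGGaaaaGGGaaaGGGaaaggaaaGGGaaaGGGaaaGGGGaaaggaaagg
The Sf3b2 window is a purine repeat with 7 runs of G and no C.

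Sf3b2, an SF3b subunit that contacts RNA near the branch site, carried 5 peaks, more than any other of the 37 genes. They ranged from 0.555 kb to 3.81 kb and covered 49.9% of the gene, and the TES peak also held the start of Pacs1, which lies downstream on the same strand. Sf3b3 carried 4 peaks, 3 of them internal, over 11.6% of its 36.6 kb. U2af1, whose protein reads the AG at the end of introns, had an internal peak of 3.02 kb and a TES peak of 3.18 kb over exons 4 to 8 of 8, with 49.0% covered and 84.5% of its coding bases inside. U2af2, whose protein binds the polypyrimidine tract, had an internal peak of 2.52 kb and a TES peak of 4.16 kb, with 32.6% covered. The TES peak of U2af2 also held the start of its downstream neighbour Epn1. For U2af2 and Sf3b2 another peak ended 134 bp and 377 bp short of the TSS on the outside of the gene, and with a distance of 500 bp allowed 25 of the 37 genes had a peak at the TSS, beside 17.7% of all.

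The SF3a genes differed among themselves. Sf3a1 had internal peaks of 1.20 kb and of 4.82 kb over exons 10 to 16 of 16, with 27.1% covered. Sf3a3 had 1 peak of 2.55 kb that reached 238 bp past its TSS and covered 1.35% of the gene, the lowest share among genes with a peak. Sf3a2 and Sf3b1, whose product is the SF3b subunit that clamps the branch site, had no peak. The nearest peaks were 21007 bp downstream of Sf3a2 and 37089 bp upstream of Sf3b1.

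The covered share of a gene combined these layouts. Over the 32 genes with a peak its median was 26.0% (1.35 to 89.4%), beside 10.4% over all protein-coding genes with a peak. More than 50% was covered in 4 genes, Hnrnpl, Hnrnpab, Srsf1 and Hnrnpa0, beside 6.36% of all protein-coding genes. Averaged over all genes, those without a peak included, 26.2% of a splicing factor gene was covered, beside 15.4% in the same classes and 9.01% over all. The share was lower in longer genes, with a Spearman rho of -0.47 over the 32 genes and -0.72 over all genes with a peak. These are descriptions across genes, which are not independent replicates.

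Exon bases lay in peaks more often than intron bases. In the 37 genes 29.8% of exon bases and 17.0% of intron bases lay inside peaks, beside 11.8% and 3.15% over all protein-coding genes. These shares pool bases over genes, so long genes weigh most. Gene length was not held alike here, and the covered share was lower in longer genes. The shares were 28.5% and 17.1% in SR genes, 32.4% and 16.8% in hnRNP genes and 26.0% and 17.1% in the U2 group. The intron share was thus nearly alike in the 3 families, while their exon shares spread more.

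**Figure D4:**
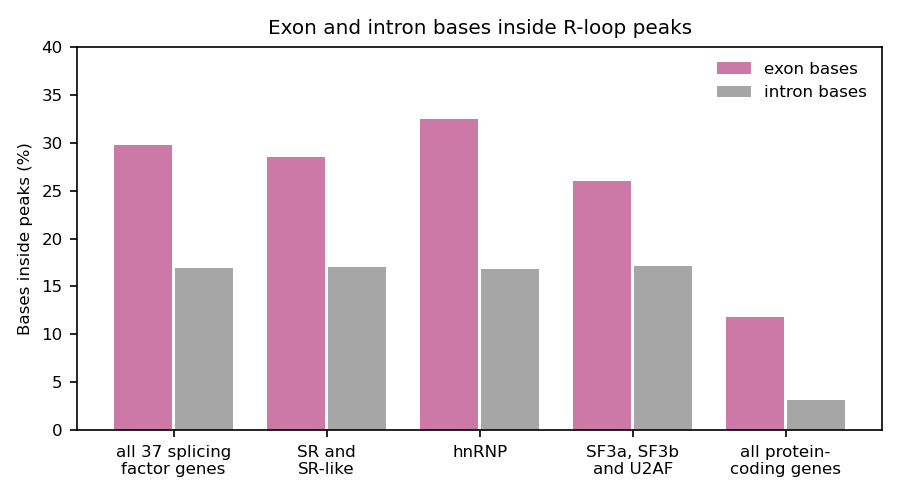
Share of exon and intron bases (%) that lay inside R-loop peaks, for all 37 splicing factor genes, for each family and for all protein-coding genes. Exon shares run from 26.0% to 32.4% in the families and intron shares stay near 17%, beside 11.8% and 3.15% over all protein-coding genes. Bases are pooled over genes, and gene length is not held alike.

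Many SR and hnRNP genes hold exons that mark their own transcripts for nonsense-mediated decay (NMD), a known feedback on protein level. In the annotation 10 of the 37 genes have NMD transcripts, and 10 exons in 6 genes occur in these but in no protein-coding transcript. Of the 10 exons, 1 lay in a peak, that of 70 bp in Hnrnpl on chr7:29602354-29602423, inside the peak that covers most of the gene. The exon of 456 bp in Srsf3 was 2755 bp from the nearest peak, that of 276 bp in Tra2b 5873 bp and that of 104 bp in Srsf2 318 bp. The 1 exon of 10 stands beside 29.8% of exon bases in peaks over the 37 genes and 11.8% over all protein-coding genes. Both are shares of bases and not counts of exons, so they set no level for this count. The exons listed for Hnrnpd overlap each other, so the 10 are not all distinct.

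Base composition differed by place. TSS peaks had a median GC content of 55.8%, TES peaks 47.1% and internal peaks 46.6%. The TSS peaks of all protein-coding genes had nearly the same median, 55.2%. GC skew, (G - C) / (G + C) of the coding strand, was above 0 in 20 of 21 TSS peaks, 9 of 13 TES peaks and 24 of 28 internal peaks. The median skew of the TSS peaks was 0.0748, beside 0.0273 over the TSS peaks of all protein-coding genes, of which 66.6% were above 0. For TES and internal peaks no values over all genes are given here. The 4 peaks of lowest GC content were internal hnRNP peaks with high skew: 0.249 in Hnrnpa2b1, at 36.2% GC, 0.235 in Hnrnph1, at 35.7%, 0.216 in Hnrnpa3, at 37.9%, and 0.211 in Hnrnpu, at 37.7%. These peaks are AT-rich and yet G-skewed. All 4 hold coding exons. The 40 codons richest in glycine lay in the peak in full in Hnrnpa3 and Hnrnpu, for 81.7% of their bases in Hnrnpa2b1 and 56.7% in Hnrnph1. In Hnrnpu 97.9% of all coding bases lay in peaks, so the place of the stretch adds little there. Over all 37 genes the stretch richest in glycine lay wholly in a peak in 14 and partly in 7. The stretch richest in arginine and serine did so in 12 and 5. The highest skew of the 62 peaks, 0.257, was that of an internal Sf3b3 peak that touched no exon. The lowest value, -0.277, came from a peak of 0.327 kb in Hnrnpul1.

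**Figure D5:**
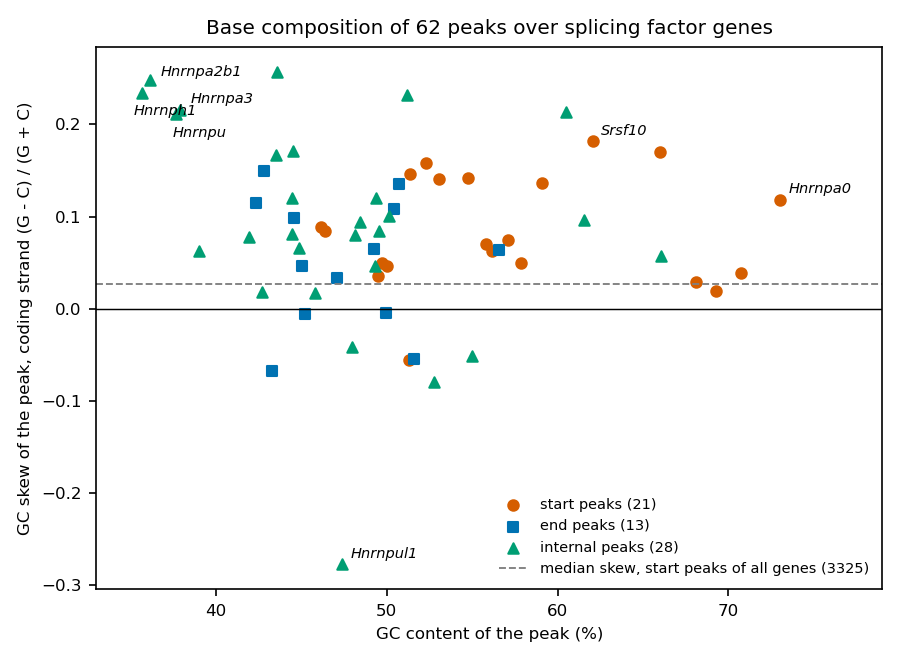
GC content (%) and GC skew on the coding strand of the 62 peaks over splicing factor genes, by place in the gene, with 0 as a solid line and the median skew of the TSS peaks of all protein-coding genes as a dashed line. TSS peaks lie at higher GC content (median 55.8%, beside 55.2% for TSS peaks of all protein-coding genes). The internal peaks of Hnrnpa2b1, Hnrnph1, Hnrnpa3 and Hnrnpu lie together at low GC content and high skew.

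GC skew was also read from the first 1 kb of each gene, whether or not a peak was there. It was above 0 in 31 of the 37 genes, with a median of 0.0609, beside 64.9% and 0.0390 over all protein-coding genes. The median was 0.0801 in the 21 genes with their TSS in a peak and 0.0473 in the 16 without. Over all protein-coding genes the same medians were 0.0649 and 0.0345, so the split is not particular to splicing factor genes. The highest value, 0.290, was that of Srsf3, and the 5 genes without a peak ranged from -0.0725 in Ptbp1 to 0.0532 in Sf3b1. The values ran from -0.0408 to 0.290 with the TSS in a peak and from -0.0725 to 0.124 without, so the groups overlapped in part. Hnrnpk, Hnrnpl and Srsf2 had their TSS in a peak at values of -0.0408, -0.0337 and -0.0254.

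Beyond the 37 genes, a list of 93 further spliceosome and splicing regulator genes was read in the same way, and 92 of its symbols were matched. At least 1 peak was found in 65, or 70.7%, beside 50.5% in the same classes and 39.6% of all protein-coding genes. The TSS lay in a peak in 36, or 39.1%, beside 14.9% of all, and the TES in 16, or 17.4%, beside 10.9% of all. The further SR and hnRNP relatives had a peak in 19 of 26 and the TSS in a peak in 15, or 57.7%, among them Ewsr1, Syncrip and Hnrpdl. Kinases of SR proteins and RS-rich coactivators had a peak in 12 of 13 but their TSS in a peak in 4, and Srrm4, a neuronal regulator of microexons, was the one without. U1 and Sm protein genes, a group that as listed also holds the U2 snRNP genes Snrpa1 and Snrpb2, had a peak in 8 of 12. Snrpa1 had a peak and Snrpb2 none, and neither had its TSS in a peak. The other U2 proteins on the list had a peak in 4 of 7 and tri-snRNP proteins in 7 of 11. Prp19 complex proteins had one in 4 of 6 and tissue-regulated factors in 11 of 17. The TSS lay in a peak in 1 of 7 other U2 proteins and 1 of 6 Prp19 complex proteins, or 14.3% and 16.7%, near the 14.9% of all protein-coding genes. With 6 to 26 genes each, the groups were not compared with each other.

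A peak list gives no expression, so it allows little check of the labelled cells. Beside 39.6% of all protein-coding genes, peaks lay on 9 of 12 NSPC markers, among them Nes and Sox2, with none on Pax6, Fabp7 and Hes5, on 0 of 4 neuronal and 0 of 3 microglial markers, on 1 of 3 oligodendrocyte markers and on 1 of 2 endothelial markers. Sets of 2 to 4 genes cannot be told apart from that share. The DNA was cut with restriction enzymes before precipitation. Of the 124 edges of the 62 peaks, 48, or 38.7%, had a site of 1 of the 5 enzymes within 100 bp, beside 27.8% of the edges of all peaks, and the part of cut sites in the widths was not tested. Another gene overlapped 19 of the 62 peaks, in 17 genes, and no such share over the whole list is given here. The peaks that hold the start of another protein-coding gene are named above, and starts of other kinds of gene are not given. Of the 21 TSS peaks, 5 held another protein-coding start, beside 25.8% of the TSS peaks of all protein-coding genes. A shared start was thus not particular to splicing factor genes.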

How the data were processed

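DRIP-seq of mouse NSPCs was analysed from 1 list of R-loop peaks deposited by the authors, who trimmed reads (Trim Galore 0.6.6, genome build mm9, per the submitters' processing notes), discarded duplicate reads and used a Hidden Markov Model to call peaks. The deposited values are positions in base pairs, another kind of unit than counts or signal. Per the methods, 3 DRIP reactions of a biological replicate were pooled into a library, and signal tracks used uniquely mapped reads. How libraries were combined into 1 list, and which reads entered peak calling, is not given in the sources used here. Treatment and strain follow the study's methods and labels. Input, GRO-seq and ESC data were not used here.

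Positions were written 1-based and set against GENCODE M1 genes on mm9. An overlap counted from 1 bp. Class shares are means, over the 37 genes, of the share of genes called in each gene's class (10 by length, 10 by promoter GC, 2 kb to either side of the TSS), the 37 genes included. No test was run. GC skew and G-rich windows of 60 bases were read from the coding strand. UTR windows were not shown. Exon numbers are those of the longest protein-coding transcript by span. For the exon and intron shares, a base in an exon of any annotated transcript of the gene counted as exon. Copies were found with blastn 2.17.0 (at least 95% identity over 100 bp). In the pathway list Qk was not matched, and Sf3b14, Hnrnpll and Ptbp3 were matched through older symbols, with a RefSeq table of GRCm38.p6 used for names alone. Calculations used Python 3.11.15, numpy 2.4.6, pandas 2.3.3, pysam 0.24.0 and samtools 1.23.1, and figures matplotlib 3.10.9. The overlap and class steps were tested on simulated data.

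All 37 genes are accounted for. Described in full are genes with their TSS in a peak and those with the highest covered share or most peaks in each family, genes without a peak are given with the distance to the nearest peak, and other genes are named where they share a peak or stand at an extreme of the pathway list. The genes, lists and windows were chosen with earlier results of these data known. Alternatives tried were a minimum width of 1 kb, peaks closer than 1 kb merged, other overlap rules, genes widened by 2 kb, other transcript limits, other classes and autosomal genes alone.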

Additional observations from a re-analysis of the deposited data

How the results depend on the processing

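Under the 12 alternative settings run for the 7 results, 38 values were computed and each stayed within a limit around its main value. The limit was 1.5 times the main value or, for the class share, the 95% binomial interval of the main value, drawn as for 37 genes. These limits are wide, and 32 of 37 genes cannot rise past theirs, so staying within them shows little. The number of splicing factor genes with a peak was 29 with peaks of at least 1 kb, without Srsf11, Hnrnpr and Hnrnph1, and 29 with the midpoint of the peak inside the gene, without Sf3a3, Srsf9 and Srsf3. It was 33 with 2 kb added on each side, which added Hnrnpa1. Genes with their TSS in a peak numbered 19 with peaks of at least 1 kb and 27 with the start of any protein-coding transcript, and genes with their TES in a peak 17 with any transcript end. The share with a peak in the same classes ranged from 41.1%, with at least 50% of the peak inside the gene, to 55.0%, with promoter GC within 1 kb. No paired analysis was possible because 1 peak list was analysed and no test was run. With no depth or signal, a gene without a peak cannot be told apart from one below the detection limit.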
